A study of Homo sapiens with 12 samples.

Results

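The 37 genes of the human mitochondrial genome were followed across the prostate cell lines BPH-1, DU145 and PC3. They were taken by name, as every gene of the expression table whose symbol begins with MT-, and make up 37 of the 58302 genes in it: 13 mRNA genes, 2 rRNA genes and 22 tRNA genes. BPH-1 is labelled a benign prostate line, and DU145 and PC3 are labelled prostate cancer lines. Each line was sequenced as 4 libraries, all of wild-type genotype, and the study compared them to find genes that differ between benign and cancer cells. Cells of every line were grown in Dulbecco's modified Eagle's medium with fetal bovine serum, penicillin and streptomycin, with no other agent named, and total RNA was taken with TRIzol. Each group is a single cell line, so a difference between lines is not a difference between benign and cancerous prostate in general. Nothing in the labels says that the 4 libraries of a line came from separate cultures, so the p-values below measure only the spread between these libraries, which may be technical.

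The mitochondrial genome is a small circle that is read from both strands as long precursor RNAs. Transfer RNA genes lie between most of the mRNA and rRNA genes, and cutting at the tRNAs frees the messages on either side. The mRNAs encode core subunits of respiratory complexes I, III and IV and of the ATP synthase, complex V, while the proteins that transcribe, cut, stabilise and translate these RNAs all come from nuclear genes. Prostate epithelium is known for an unusual mitochondrial metabolism, in which citrate is secreted rather than oxidised.

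Of the 37 genes, 28 lie on the plus strand of the reference and are read from the heavy-strand promoter, and 9 lie on the minus strand and are read from the light-strand promoter. MT-ND6 is the only mRNA gene among the latter. The mRNA and rRNA genes are 207 to 1812 bases long with 39.6 to 47.7% G and C, and the tRNA genes are 59 to 75 bases long with 23.1 to 49.3% G and C. Several genes touch or overlap, which bears on how their reads can be told apart. The reference sequence below (GENCODE 29 transcripts, GRCh38, 5′ to 3′ on the strand of the gene) shows the places the results turn on. At MT:3212-3304 the tRNA gene MT-TL1 follows MT-RNR2 with no base between them, and MT-TL1 is in capitals. At MT:8509-8590 MT-ATP8 and MT-ATP6 share 46 bases, and at MT:10742-10784 MT-ND4L and MT-ND4 share 7, with the shared bases in capitals. MT-ND5 ends at base 14148 and MT-ND6, on the other strand, ends at base 14149, so the last 60 bases of each are shown, from MT:14089-14148 on the plus strand and MT:14149-14208 on the minus strand.
MT-RNR2/MT-TL1: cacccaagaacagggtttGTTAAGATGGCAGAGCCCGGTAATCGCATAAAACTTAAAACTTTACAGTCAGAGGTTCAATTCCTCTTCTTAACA
MT-ATP8/MT-ATP6: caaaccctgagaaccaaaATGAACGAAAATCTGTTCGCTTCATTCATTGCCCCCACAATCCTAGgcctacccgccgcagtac
MT-ND4L/MT-ND4: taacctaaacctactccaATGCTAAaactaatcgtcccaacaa
MT-ND5 end: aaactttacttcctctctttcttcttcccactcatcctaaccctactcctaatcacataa
MT-ND6 end: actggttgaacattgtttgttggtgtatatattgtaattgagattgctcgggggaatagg
Whether strand was used in counting, and how reads crossing from one gene into the next were assigned, is not given in the sources used here. Values of the overlapping pairs are therefore not independent, and for MT-ND6 and the 8 light-strand tRNA genes reads of the gene and of the opposite strand cannot be told apart.

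The values are FPKM, reads per kilobase of gene length, scaled to library depth. The depth recovered from the values was 12950665 to 16309559 reads per library. The 15 mRNA and rRNA genes held at least 4403 reads in every library, while 7 of the 22 tRNA genes did not reach 10 reads in every library of any line. The labelled lines were checked against marker genes: basal keratins KRT5 and KRT14 with TP63 summed to 298 to 427 FPKM in BPH-1 and to less than 1 in the cancer lines, the luminal list held at 45.2 FPKM or more in all 12 libraries, and the epithelial genes EPCAM and CDH1 summed to 77.6 to 102 FPKM in BPH-1, 8.33 to 11.7 in PC3 and only 0.252 to 0.869 in DU145. The prostate-specific antigen gene KLK3 was at 0 in all libraries. These markers do not establish the identity of the DU145 libraries, where EPCAM and CDH1 were nearly absent. The names of the lines are taken from the labels. PTPRC, a leukocyte gene, was between 1.15 and 1.54 FPKM in BPH-1, reached 1.35 in DU145, where 2 libraries were at 0, and was at 0 in all PC3 libraries, and CD3E was at 0 throughout. The libraries of DU145 and PC3 were uneven in base composition. Over 3014 nuclear genes with the same range of G and C as the mitochondrial mRNA and rRNA genes, the mean log2 level relative to all libraries was 0.32 to 0.38 in BPH-1, but -0.47, 0.27, -0.83 and 0.19 in DU145 replicates 1 to 4 and 0.04, 0.04, -0.14 and -0.49 in PC3 replicates 1 to 4. DU145 replicates 1 and 3 and PC3 replicate 4 thus stood apart on the low side, at -0.26, -0.62 and -0.35 from the mean of their line. DU145 replicates 2 and 4 departed upward, by 0.48 and 0.40, and were kept, so only low libraries were set aside. Results are given with and without these 3 low libraries, called uneven below, where that matters.

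Mitochondrial transcripts were the most abundant in every line. They took 9 of the 10 highest places by mean FPKM in BPH-1, all 10 in DU145 and 9 in PC3, led by MT-ND4, MT-CO2 and MT-CO1 in that order of lines. The highest gene outside them was EEF1A1P5 at 2946 FPKM in BPH-1 and 2906 in DU145, and FTH1P2 at 4898 in PC3. As a share of all FPKM, the 37 genes held 27.5, 27.5, 25.03 and 26.8% in BPH-1 replicates 1 to 4, with a mean of 26.7% ± 1.17 (SD, n = 4). In DU145 the shares were 30.7, 37.7, 25.8 and 39.7%, with a mean of 33.5% ± 6.42 (SD, n = 4). In PC3 they were 34.3, 35.0, 34.4 and 27.4%, with a mean of 32.8% ± 3.59 (SD, n = 4). Both cancer lines overlapped BPH-1, each through libraries named above as standing apart: DU145 replicate 3 and PC3 replicate 4. Without the 3 uneven libraries, DU145 spanned 37.7 to 39.7% in 2 libraries and PC3 34.3 to 35.0% in 3, above the highest BPH-1 library. The libraries left out had the lowest mitochondrial shares of their lines, so leaving them out favours this separation.

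Counted as reads rather than FPKM, the mitochondrial share was 5.79% ± 0.236 in BPH-1, 8.53% ± 1.63 in DU145 and 8.96% ± 0.957 in PC3 (SD, n = 4 each). On this scale neither cancer line overlapped BPH-1, since the lowest values were 6.62% in DU145 and 7.58% in PC3 and the highest in BPH-1 was 5.96%. The mitochondrial genes are short for their abundance, so FPKM gives them a larger share than reads do. A share is relative: more mitochondrial RNA per cell and less of all other RNA cannot be told apart in bulk RNA, nor can fewer cells of a kind and less RNA in each. These shares are sums over the chosen genes and are given with no test. The tRNA genes were a small part of the total, and their sum was ordered without overlap, at 0.321 to 0.379% of FPKM in BPH-1, 0.427 to 0.651% in DU145 and 0.755 to 0.970% in PC3. A single gene, MT-TL1, made up 41.5, 53.8 and 78.1% of that sum on average in the same order. The ordering therefore does not describe the tRNA genes as a class. The rRNA genes held 1.08% ± 0.120 in BPH-1, 1.27% ± 0.600 in DU145 and 1.63% ± 0.383 in PC3 (SD, n = 4 each), where only PC3 lay wholly above BPH-1.

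**Figure D1:**
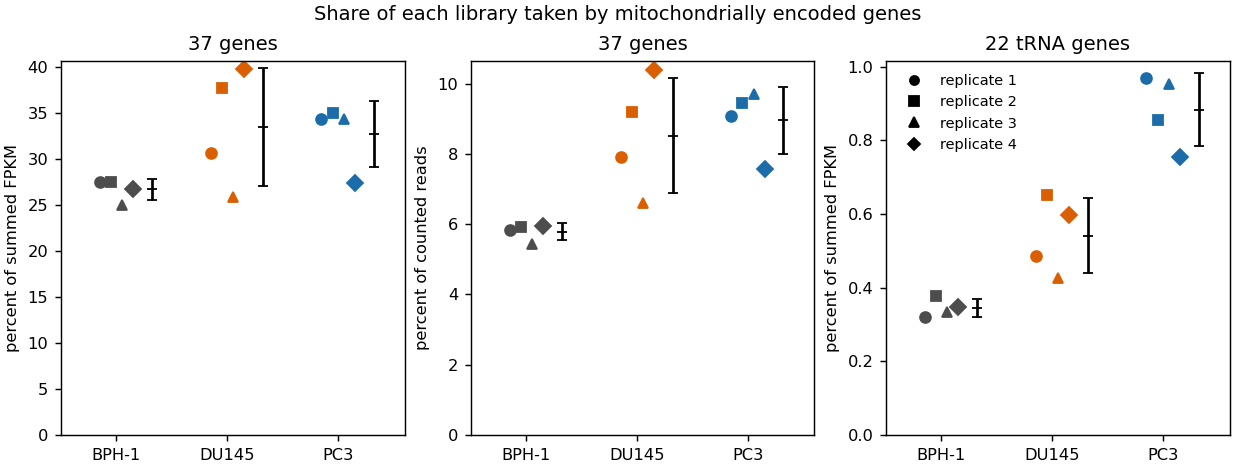
Share of each library held by the 37 mitochondrial genes, in percent, as a share of summed FPKM, as a share of counted reads, and for the tRNA genes alone; each point is 1 library and the bar is the mean of the line with its SD (n = 4). In percent of FPKM, DU145 replicate 3 (25.8%) and PC3 replicate 4 (27.4%) fall within the range of the BPH-1 libraries (25.03 to 27.5%), while in percent of reads both cancer lines lie above BPH-1.

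The 7 mitochondrial subunits of complex I, the NADH dehydrogenase that feeds electrons into the chain, spanned a wide range of levels. MT-ND1 read 2479, 2638, 2736 and 2832 FPKM in BPH-1, 5203, 4471, 6254 and 4902 in DU145, and 6943, 6150, 6207 and 7985 in PC3. MT-ND2 read 3517, 2734, 2701 and 2694 in BPH-1, 5638, 6694, 5039 and 6111 in DU145, and 6037, 5773, 5760 and 6125 in PC3. For both genes every cancer library lay above every BPH-1 library, while DU145 and PC3 overlapped. MT-ND3 was lower throughout, at 1045, 884, 841 and 815 FPKM in BPH-1, 1631, 1507, 1558 and 1554 in DU145, and 1416, 1444, 1420 and 1589 in PC3. MT-ND5, the largest of these subunits, read 2104, 2498, 2261 and 2574 FPKM in BPH-1, 3696, 2950, 4321 and 4188 in DU145, and 3204, 3240, 4394 and 4015 in PC3. These genes too were higher in all cancer libraries than in any BPH-1 library.

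MT-ND4 and MT-ND4L come from a shared message and moved together library by library. MT-ND4 read 8907, 9046, 7802 and 8706 FPKM in BPH-1, 7672, 13099, 5350 and 14886 in DU145, and 11082, 12304, 11941 and 6149 in PC3. MT-ND4L read 8546, 8741, 7179 and 7966 in BPH-1, 7720, 12524, 5163 and 14148 in DU145, and 10081, 11562, 11158 and 5796 in PC3. In both genes the low values of the cancer lines were the 3 libraries that stood apart in base composition, and the other libraries of DU145 and PC3 lay above BPH-1. The level of MT-ND4L was 91.0 to 101% of that of MT-ND4 in every library.

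MT-ND6, the complex I subunit read from the light strand, did not follow the others. It read 2157, 1502, 1494 and 1198 FPKM in BPH-1, 881, 1027, 758 and 688 in DU145, and 1784, 1778, 2256 and 1640 in PC3. All 4 DU145 libraries lay below all others, and BPH-1 and PC3 overlapped. Set against the 12 heavy-strand mRNAs, MT-ND6 amounted to 2.605% ± 0.605 of their summed FPKM in BPH-1, 0.933% ± 0.212 in DU145 and 2.11% ± 0.255 in PC3 (SD, n = 4 each).

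MT-CYB encodes cytochrome b, the only mitochondrially encoded subunit of complex III. Its level was 2731, 2720, 2159 and 2148 FPKM in BPH-1, 4177, 4895, 3518 and 5739 in DU145, and 2666, 2766, 2477 and 1900 in PC3. DU145 stood above both other lines in every library, and BPH-1 and PC3 overlapped.

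The 3 subunits that form the catalytic core of complex IV, cytochrome c oxidase, each had a different order of lines by mean FPKM. Lines overlapped within each of these orders. MT-CO1 read 7186, 7482, 7815 and 8710 FPKM in BPH-1, 11476, 9788, 7839 and 10650 in DU145, and 15360, 16202, 15748 and 13583 in PC3. MT-CO2 read 5993, 7067, 5720 and 6303 in BPH-1, 13679, 13661, 11899 and 15986 in DU145, and 11366, 11802, 12394 and 9253 in PC3. MT-CO3 read 5206, 4691, 4235 and 4912 in BPH-1, 5180, 6702, 4051 and 6878 in DU145, and 4095, 4280, 3659 and 3178 in PC3. MT-CO1 was thus highest in all PC3 libraries, MT-CO2 was higher in both cancer lines than in BPH-1, and MT-CO3 overlapped between all lines. MT-CO1 stood at 1.65 ± 0.208 times MT-CO3 in BPH-1, 1.79 ± 0.351 times in DU145 and 4.03 ± 0.301 times in PC3 (SD, n = 4 each).

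MT-ATP6, the membrane subunit through which protons pass in complex V, and the small subunit MT-ATP8 lie on a shared message. MT-ATP6 read 7094, 6146, 5800 and 6589 FPKM in BPH-1, 8766, 11914, 7391 and 12285 in DU145, and 8415, 8872, 8021 and 5887 in PC3. MT-ATP8 read 8744, 6943, 7179 and 7561 in BPH-1, 9492, 13969, 8895 and 14184 in DU145, and 10990, 11054, 10495 and 7716 in PC3. DU145 lay above BPH-1 in all libraries for both genes, and PC3 overlapped BPH-1 through its replicate 4.

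The 2 rRNAs form the core of the mitochondrial ribosome, which translates the mRNAs. MT-RNR1, the RNA of the small subunit, read 702, 541, 662 and 681 FPKM in BPH-1, 666, 820, 584 and 1030 in DU145, and 743, 939, 1237 and 901 in PC3. MT-RNR2, the RNA of the large subunit, read 1583, 2367, 1966 and 2151 in BPH-1, 1940, 3365, 1487 and 5146 in DU145, and 3659, 3866, 5382 and 2785 in PC3. PC3 exceeded BPH-1 in all libraries, and DU145 overlapped both. The 2 rRNA genes came to only 4.28, 3.87 and 5.37% of the summed FPKM of the mRNA genes in BPH-1, DU145 and PC3. Whether library preparation removed rRNA was not examined, so these values and their differences are not taken as rRNA abundance. In the order of the 15 mRNA and rRNA genes by mean level, neighbours overlapped in 10 of 14 places in BPH-1, 13 in DU145 and 8 in PC3, so most of the order is not resolved by 4 libraries.

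**Figure D2:**
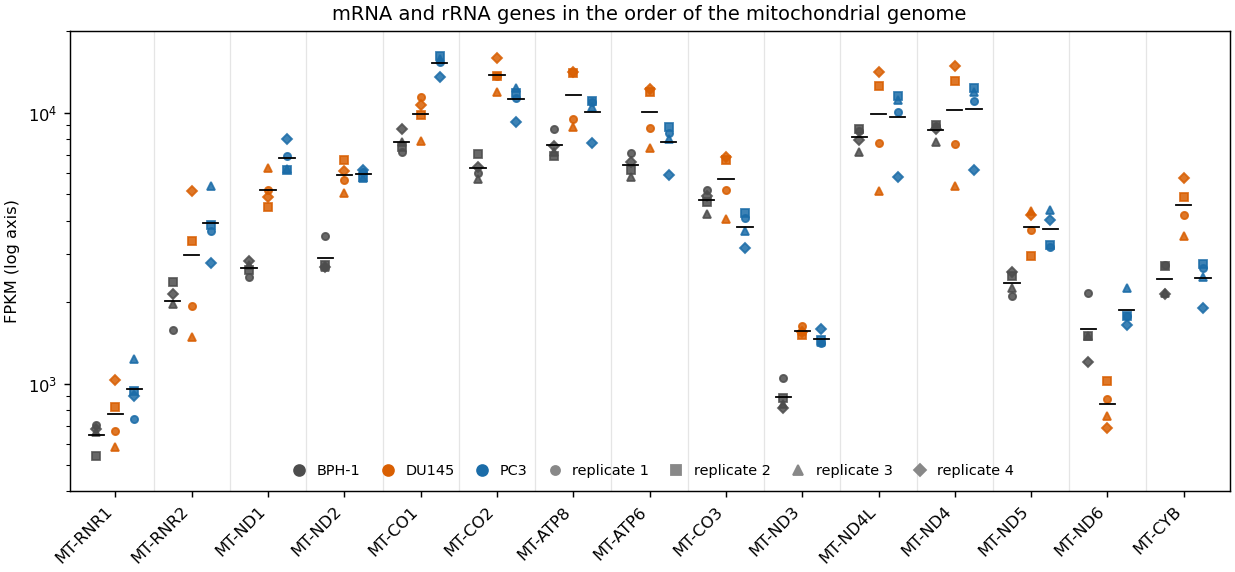
FPKM of the 13 mRNA and 2 rRNA genes in all 12 libraries on a log axis, 1 point per library and 1 colour per line. MT-ND1, MT-ND2, MT-ND3, MT-ND5 and MT-CO2 separate both cancer lines from BPH-1, MT-ND6 is lowest in DU145, and MT-ND4 spreads from 5350 to 14886 within DU145.

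In DU145 against BPH-1, most mitochondrial mRNAs were higher and MT-ND6 was lower. All 15 mRNA and rRNA genes entered the test, in which 8 rose, 1 fell and 6 did not pass. The risen genes were MT-ND1, MT-ND2, MT-ND3 and MT-ND5 of complex I, MT-CYB of complex III, MT-CO2 of complex IV, and MT-ATP6 and MT-ATP8 of complex V. These counts are read against the whole table, where 62.7% of the 17016 genes tested passed, 30.3% higher and 32.4% lower in DU145, and where 59.5% did not overlap between the lines. With 9 of 15 past the test, their share was near that of all genes, while the share that rose was above the 30.3% of all genes. The median log2 fold change of the 15 genes was 0.59, against -0.03 over all genes tested. Fold changes are on the log2(FPKM + 1) scale, from limma with Benjamini-Hochberg adjustment over all genes tested.

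The mean level of MT-CO2 was 2.20-fold higher in DU145, a log2 fold change of 1.14 ± 0.139 (SE, limma adjusted p = 7.37e-05). MT-ND2 rose 2.02-fold (1.01 ± 0.149, limma adjusted p = 0.000246) and MT-ND1 rose 1.95-fold (0.95 ± 0.140, limma adjusted p = 0.000245). MT-CYB rose 1.88-fold (0.90 ± 0.180, limma adjusted p = 0.00167). MT-ND3 and MT-ND5 rose by 0.81 and 0.67 on the log2 scale (limma adjusted p = 0.000441 and 0.00404). These genes passed under all 21 alternatives that were tried, of which 8 left out 1 library and 1 was a permutation test without adjustment. MT-ATP6 and MT-ATP8 rose less, by 0.63 and 0.59 (limma adjusted p = 0.0132 and 0.0197), and neither passed when every library was scaled to the same summed FPKM (0.38 and 0.34). MT-ATP8 also missed the threshold without BPH-1 replicate 2 (limma adjusted p = 0.0567) or 3 (0.0580) and without DU145 replicate 2 (0.0545) or 4 (0.0511).

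MT-ND6 fell by 0.90 ± 0.203 on the log2 scale (SE, limma adjusted p = 0.00326), to 0.528 of its BPH-1 mean. With each library's trend of level against G and C content divided out, the difference was -0.12 and did not pass (limma adjusted p = 0.767), whereas without the 3 uneven libraries it was -0.88 (limma adjusted p = 0.0258). MT-ND4 and MT-ND4L differed by 0.14 and 0.18 and did not pass (limma adjusted p = 0.699 and 0.601), but without the 3 uneven libraries they differed by 0.70 and 0.72 (limma adjusted p = 0.0163 and 0.0157). MT-CO1 (0.34), MT-CO3 (0.23), MT-RNR1 (0.24) and MT-RNR2 (0.41) did not pass either. Without DU145 replicate 3 the difference of MT-CO1 passed, at 0.45 (limma adjusted p = 0.0183). Without all 3 uneven libraries 13 of the 15 genes were higher and 1 lower, and with the G and C trend divided out 13 were higher and 0 lower. Leaving out the 3 uneven libraries keeps only 2 of DU145, both high in nuclear genes of like G and C content, which favours higher counts. Dividing the trend out also removes any real difference that follows base composition, so neither setting is taken as the better one.

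Across PC3 and BPH-1, MT-ND1, MT-ND2, MT-CO1 and both rRNAs were higher in PC3, and cytochrome b was level. Of the 15 mRNA and rRNA genes, 9 rose, 1 fell and 5 did not pass, beside 67.6% of the 16408 genes tested that passed, 27.1% higher and 40.4% lower, with 64.4% not overlapping. The median log2 fold change of the 15 was 0.55, against -0.13 for all genes tested. Of the 3 uneven libraries only PC3 replicate 4 enters this comparison, and without it 12 of the 15 genes were higher and 0 lower. With the G and C trend divided out 13 were higher and 0 lower, with a median of 0.96. DU145 and PC3 were each compared with the same 4 BPH-1 libraries, so genes that moved in both comparisons are not independent evidence.

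MT-ND1 showed the largest difference among the mRNAs, 2.55-fold, a log2 fold change of 1.35 ± 0.117 (SE, limma adjusted p = 8.72e-06). MT-ND2 rose 2.03-fold (1.03 ± 0.117, limma adjusted p = 4.45e-05) and MT-CO1 rose 1.95-fold (0.97 ± 0.113, limma adjusted p = 5.72e-05). MT-RNR2 rose 1.94-fold (0.93 ± 0.204, limma adjusted p = 0.00265). MT-CO2 rose by 0.83, MT-ND3 by 0.72 and MT-ND5 by 0.65 (limma adjusted p = 0.000328, 0.000281 and 0.00215). Each of these 7 genes passed under all 21 alternatives, in which leaving out PC3 replicate 4 and leaving out the uneven libraries are the same fit. MT-RNR1 rose by 0.55 (limma adjusted p = 0.0129), but not with equal summed FPKM (0.27, limma adjusted p = 0.130).

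MT-CYB differed by 0.00 ± 0.151 on the log2 scale (SE, limma adjusted p = 0.990). MT-CO3 fell by 0.33 (limma adjusted p = 0.0423) and MT-ATP8 rose by 0.39 (limma adjusted p = 0.0375), both close to the threshold, and each was lost when single libraries were left out. MT-CO3 missed it without BPH-1 replicate 1, 2 or 4 and without PC3 replicate 3 or 4 (limma adjusted p = 0.0724 to 0.107), and MT-ATP8 without BPH-1 replicate 2, 3 or 4 and without PC3 replicate 1, 2 or 3 (limma adjusted p = 0.0792 to 0.101). With the other settings counted as well, the call of MT-CO3 was lost under 13 of the 21 alternatives and that of MT-ATP8 under 10 of 21. MT-ATP6, MT-ND4 and MT-ND4L did not pass (0.27, 0.22 and 0.20). Without PC3 replicate 4 they were higher in PC3, by 0.40, 0.45 and 0.43 (limma adjusted p = 0.0170, 0.00916 and 0.0151). MT-ND6 differed by 0.25 (limma adjusted p = 0.240), and without BPH-1 replicate 1, its highest BPH-1 library, by 0.41 (limma adjusted p = 0.0396).

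Between the cancer lines, with all libraries kept, few mitochondrial mRNAs differed: MT-ND6 and MT-CO1 were higher in PC3 and MT-CYB was lower. The other 12 of the 15 mRNA and rRNA genes did not pass. Over all 16420 genes tested, 48.3% passed, 20.0% higher and 28.3% lower in PC3, and 46.5% did not overlap, so the share of these genes that passed, 3 of 15, was below the background. Without the 3 uneven libraries, 3 of the 15 genes were higher and 3 lower. With the G and C trend divided out, 2 were higher and 2 lower. The share of all genes that passed under these 2 settings is not given here. MT-ND6 was 2.22-fold higher in PC3, a log2 fold change of 1.16 ± 0.182 (SE, limma adjusted p = 0.000679). MT-CYB fell by 0.89 ± 0.214 (SE, limma adjusted p = 0.00726). Both passed under all 21 alternatives. MT-CO1 rose by 0.63 ± 0.205 (SE, limma adjusted p = 0.0306), but missed the threshold without DU145 replicate 2, 3 or 4 and without PC3 replicate 1, 2 or 3 (limma adjusted p = 0.0520 to 0.0939). MT-CO3 differed by -0.56 (limma adjusted p = 0.0652), and by -0.72 without DU145 replicate 3 (limma adjusted p = 0.0163).

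**Figure D3:**
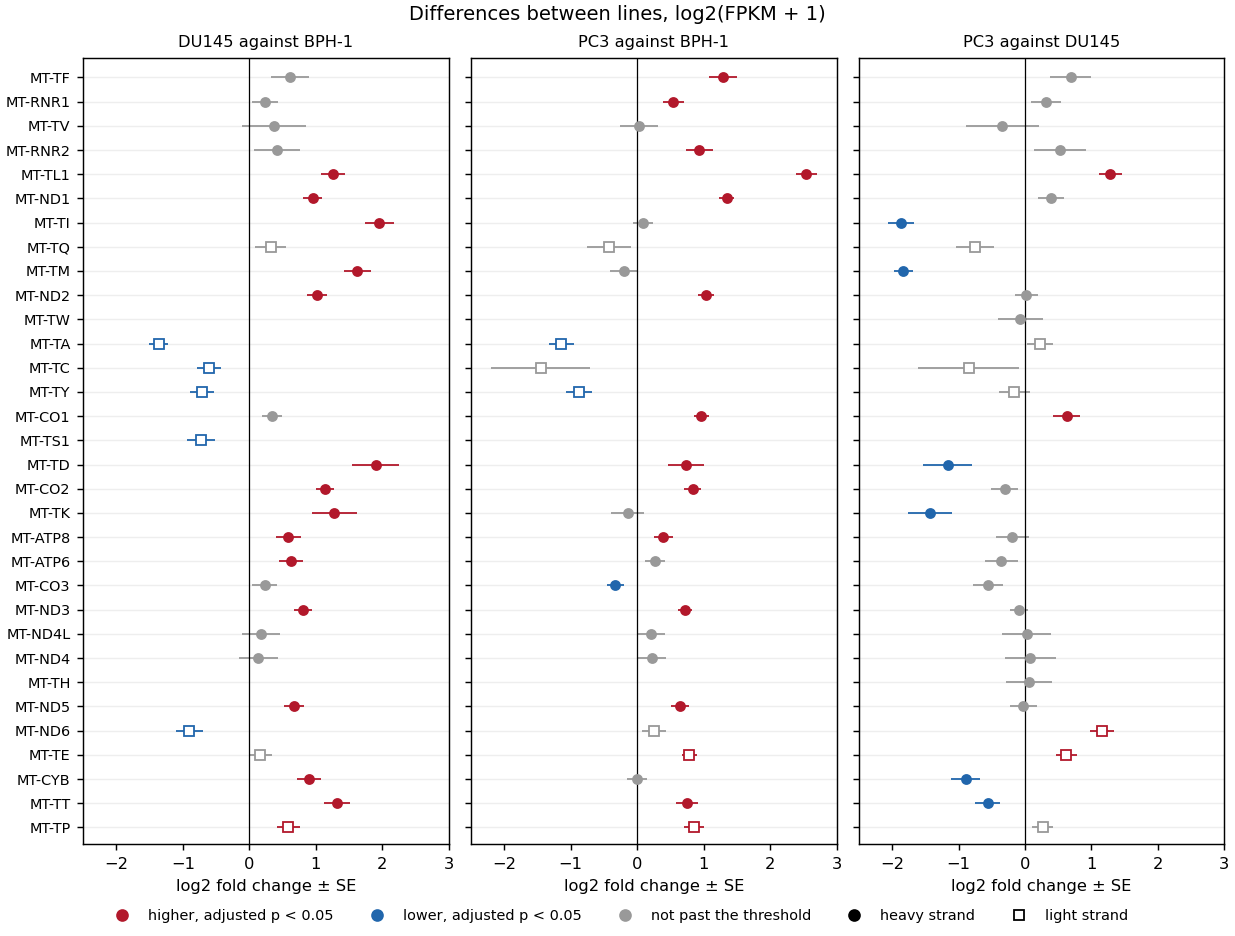
Log2 fold change on the log2(FPKM + 1) scale of each named mitochondrial gene in the 3 comparisons of lines, with its standard error; circles are heavy-strand and open squares light-strand genes. MT-TL1 reaches 2.55 in PC3 against BPH-1, MT-TI lies at 1.96 in DU145 against BPH-1 and -1.87 in PC3 against DU145, and MT-ND6 at -0.90 and 1.16.

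Among the mitochondrial genes tested, the largest log2 difference in each pair of lines was that of a tRNA gene, MT-TI in both comparisons with DU145 and MT-TL1 in PC3 against BPH-1. A tRNA gene entered a test only if enough libraries reached 10 reads, so 15, 14 and 16 of the 22 were tested in DU145 against BPH-1, PC3 against BPH-1 and PC3 against DU145. Genes that entered through the line where they are high had to differ, and the counts here are a description. MT-TW, MT-TN, MT-TG, MT-TR, MT-TH, MT-TS2 and MT-TL2 had too few reads to be named with values. In DU145 against BPH-1, 7 tRNA genes were higher and 4 lower, so 73.3% of those tested passed, beside 62.7% of all genes. In PC3 against BPH-1, 6 were higher and 2 lower, or 57.1% beside 67.6%. In PC3 against DU145, 2 were higher and 5 lower, or 43.8% beside 48.3%. None of these shares is read as a result about the tRNA genes.

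MT-TL1, the gene of a leucine tRNA that follows MT-RNR2 in the sequence printed above, had the highest FPKM of the tRNA genes in every line. It read 261, 361, 392 and 405 FPKM in BPH-1, 734, 935, 734 and 989 in DU145, and 2232, 1997, 2262 and 1745 in PC3. The 3 lines did not overlap. Reads on this gene may come from the tRNA, from uncut precursor or from reads that cross in from a neighbour. These were not told apart, so the values are not tRNA abundance. The log2 fold change was 1.26 ± 0.183 in DU145 against BPH-1 (limma adjusted p = 0.000224), 2.55 ± 0.157 in PC3 against BPH-1 (limma adjusted p = 1.05e-06) and 1.28 ± 0.172 in PC3 against DU145 (limma adjusted p = 0.000265). All 3 differences passed under all 21 alternatives. MT-TL1 made up 41.5% ± 7.08 of the summed tRNA FPKM in BPH-1, 53.8% ± 4.04 in DU145 and 78.1% ± 0.493 in PC3 (SD, n = 4 each). Set against its neighbours, MT-TL1 was 17.6% ± 2.13 of MT-RNR2 in BPH-1, 33.6% ± 13.01 in DU145 and 54.3% ± 9.53 in PC3, and 13.2% ± 1.81, 16.7% ± 4.51 and 30.7% ± 6.23 of MT-ND1 in the same order (SD, n = 4 each). In the first ratio DU145 overlapped both other lines, and in the second it overlapped BPH-1 but not PC3.

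Several other heavy-strand tRNA genes had their highest mean in DU145. They held few reads per library in BPH-1: 17 to 25 for MT-TI, 16 to 31 for MT-TM, 9 to 20 for MT-TK and MT-TD, and 14 to 21 for MT-TT. MT-TI, for isoleucine, read 23.5, 16.1, 22.4 and 16.7 FPKM in BPH-1, 84.1, 97.7, 54.5 and 84.3 in DU145, and 24.6, 21.1, 19.9 and 17.9 in PC3. MT-TM, for methionine, read 25.8, 29.9, 21.8 and 15.1 in BPH-1, 68.1, 78.4, 63.9 and 75.6 in DU145, and 20.4, 22.5, 19.1 and 15.9 in PC3. For both, DU145 stood above the other lines without overlap and the other 2 lines overlapped. MT-TI rose by 1.96 ± 0.213 in DU145 against BPH-1 and decreased by 1.87 ± 0.193 in PC3 against DU145, and MT-TM rose by 1.62 ± 0.206 and decreased by 1.83 ± 0.142 (limma adjusted p = 3.49e-05, 5.34e-05, 9.45e-05 and 9.55e-06). MT-TK, for lysine, rose by 1.28 and decreased by 1.43 in the same comparisons (limma adjusted p = 0.00853 and 0.00584), although 1 DU145 library, at 18.5 FPKM, fell below the highest of BPH-1, at 18.7. MT-TD, for aspartate, rose by 1.90 in DU145 against BPH-1 (limma adjusted p = 0.00113). On the log2 scale MT-TD rose by 0.74 in PC3 against BPH-1 and decreased by 1.17 in PC3 against DU145 (limma adjusted p = 0.0369 and 0.0273), calls that were lost without BPH-1 replicate 1, 3 or 4 or PC3 replicate 1 or 2 in the first case, and without DU145 replicate 1 or 2 or PC3 replicate 2, 3 or 4 in the second. MT-TT, for threonine, rose in both cancer lines, by 1.31 in DU145 and 0.75 in PC3 (limma adjusted p = 0.000265 and 0.00289). In PC3 against DU145 it decreased by 0.56 (limma adjusted p = 0.0356), a call lost without DU145 replicate 1, 2 or 4 or PC3 replicate 2, 3 or 4 (limma adjusted p = 0.0561 to 0.0890). With the other settings counted as well, that call of MT-TT was lost under 12 of 21 alternatives. The calls of MT-TD in PC3 were lost under 10 of 20 against BPH-1 and 8 of 21 against DU145.

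Of the 7 light-strand tRNA genes tested in DU145 against BPH-1, MT-TA, MT-TC, MT-TY and MT-TS1 fell, MT-TP rose, and MT-TE and MT-TQ did not pass. MT-TA, for alanine, read 32.9, 32.3, 25.2 and 30.6 FPKM in BPH-1, 10.7, 10.7, 12.2 and 10.8 in DU145, and 10.1, 10.6, 18.8 and 14.5 in PC3. It fell by 1.36 ± 0.145 in DU145 (limma adjusted p = 3.05e-05) and by 1.14 ± 0.190 in PC3 (limma adjusted p = 0.000522). MT-TY, for tyrosine, fell by 0.72 and 0.88 in DU145 and PC3 (limma adjusted p = 0.00594 and 0.00342). MT-TC, for cysteine, fell by 0.60 in DU145 (limma adjusted p = 0.0142). With the G and C trend divided out most of these calls were lost: MT-TY changed sign in DU145, to 0.09 (limma adjusted p = 0.833), and was at -0.17 in PC3 (limma adjusted p = 0.491), MT-TC was at -0.34 in DU145 (limma adjusted p = 0.317) and MT-TA at -0.61 in PC3 (limma adjusted p = 0.0629). MT-TA in DU145 still passed, at -0.75 (limma adjusted p = 0.0398). In PC3, MT-TC rested on 1 library at 1.17 FPKM beside 21.0, 36.0 and 22.2 in the others. The difference of MT-TC in PC3 did not pass (limma adjusted p = 0.112), and without that library it was -0.55 (limma adjusted p = 0.0381). MT-TS1, for serine, held only 10 to 19 reads in BPH-1 and 8 to 11 in DU145, and the lines overlapped. Its difference of -0.72 in DU145 passed (limma adjusted p = 0.0130), but not without the 3 uneven libraries (-0.61, limma adjusted p = 0.0712), with voom on recovered reads (adjusted p = 0.0710) or in the exact permutation test (p = 0.0571). The light-strand genes MT-TE and MT-TP, for glutamate and proline, instead rose in PC3 against BPH-1 by 0.78 and 0.85 (limma adjusted p = 0.000237 and 0.000590), and MT-TP rose in DU145 by 0.59 (limma adjusted p = 0.0120), though not with equal summed FPKM (0.36, limma adjusted p = 0.103).

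Taking both kinds of gene, of the 22 heavy-strand genes tested in DU145 against BPH-1 14 were higher and 0 lower at an adjusted p under 0.05, and of the 8 light-strand genes 1 was higher and 5 were lower. The shares that passed, 63.6 and 75.0%, stand beside 62.7% of all genes, of which 30.3% were higher and 32.4% lower. The light-strand counts depend on base composition. With the G and C trend divided out, MT-ND6, MT-TC and MT-TY no longer passed in DU145 (limma adjusted p = 0.767, 0.317 and 0.833). MT-TE then rose by 1.39 (limma adjusted p = 0.00332). In PC3 against BPH-1 the counts were 13 higher and 1 lower of 22 heavy-strand genes, and 2 higher and 2 lower of 7 light-strand genes, shares of 63.6 and 57.1% that were both below the 67.6% of all genes. Strand was not used to choose the genes, and no test of the difference between strands was made. Among the remaining tRNA genes, MT-TF, for phenylalanine, rose by 1.30 in PC3 against BPH-1 (limma adjusted p = 0.000430) and differed by 0.61 in DU145 (limma adjusted p = 0.0904). The difference of MT-TF in DU145 passed without DU145 replicate 3, at 0.87 (limma adjusted p = 0.00887). MT-TV and MT-TQ, for valine and glutamine, did not pass in any comparison, but both depended on the processing. MT-TV differed by 0.37 in DU145 and 0.03 in PC3 against BPH-1 and by -0.34 in PC3 against DU145. Without the 3 uneven libraries MT-TV rose by 1.33 in DU145 against BPH-1 and fell by 1.01 in PC3 against DU145 (limma adjusted p = 0.00147 and 0.00102), and with the G and C trend divided out it rose by 1.25 and 0.81 in DU145 and PC3 against BPH-1 (limma adjusted p = 0.00234 and 0.00357). MT-TQ differed by -0.75 in PC3 against DU145, just short of the threshold (limma adjusted p = 0.0519), and passed under 6 of the 21 alternatives, among them leaving out PC3 replicate 1, 2 or 4 (-0.89, -0.45 and -0.90).

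The make-up of the mitochondrial mRNA pool differed between lines as well. Complex I subunits took 43.5% ± 0.825 of the summed FPKM of the 13 mRNAs in BPH-1, 40.0% ± 1.52 in DU145 and 44.1% ± 0.781 in PC3 (SD, n = 4 each). MT-CYB took 3.90% ± 0.410, 4.91% ± 0.153 and 2.70% ± 0.167 in the same order, and no library of one line overlapped another. MT-CO2 was likewise separate, at 10.1% ± 0.861, 15.01% ± 1.54 and 12.4% ± 0.363. MT-CO3 separated the lines as well, highest in BPH-1, at 7.62% ± 0.290, 6.08% ± 0.357 and 4.21% ± 0.274. MT-CO1 took 12.5% ± 1.37 in BPH-1, 10.8% ± 1.88 in DU145 and 16.9% ± 0.832 in PC3, with PC3 above all others. These ratios within a library do not depend on its depth or on how much nuclear RNA it holds, but they show unequal change only and not which gene moved, and were not tested.

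**Figure D4:**
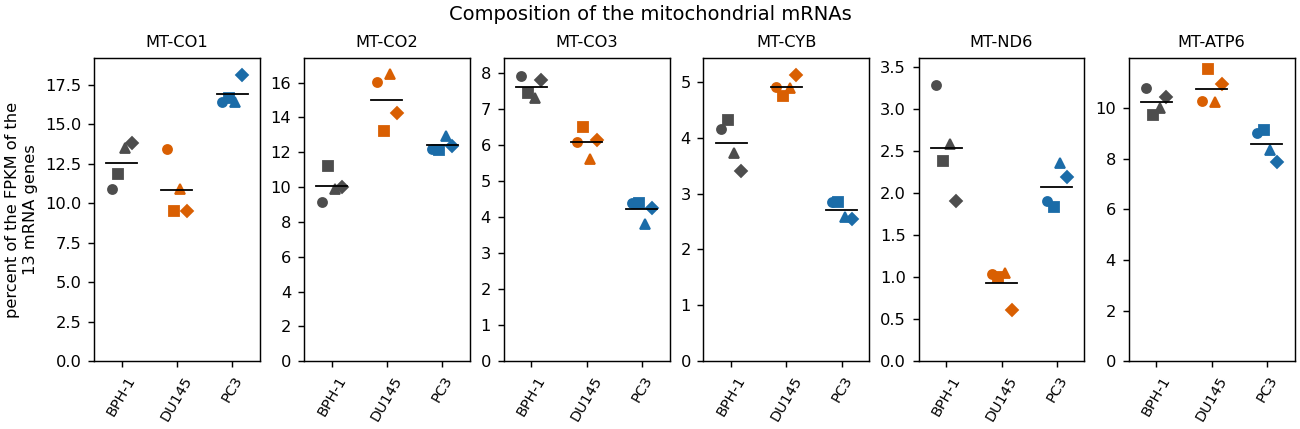
Percent of the summed FPKM of the 13 mitochondrial mRNAs taken by 6 genes, 1 point per library, with axes from 0. MT-CO2, MT-CO3 and MT-CYB separate all 3 lines without overlap, and MT-ND6 is lowest in DU145.

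Within the cancer lines the summed mitochondrial share and MT-ND4 moved with base composition, while several other mitochondrial genes did not. DU145 replicates 1 and 3 and PC3 replicate 4 had the lowest mitochondrial shares of FPKM of their lines, and the lowest MT-ND4. Their mean levels of nuclear genes with 39.6 to 47.7% G and C were the lowest of the same lines. MT-ND1 went the other way, with its highest values in DU145 replicate 3 (6254 FPKM) and PC3 replicate 4 (7985). The highest DU145 value was in replicate 3 for MT-ND5 (4321) and in replicate 1 for MT-ND3 (1631) and MT-CO1 (11476), and the highest PC3 value was in replicate 4 for MT-ND2 (6125) and MT-ND3 (1589). The part this plays in the differences between lines was not tested beyond the alternatives given above.

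**Figure D5:**
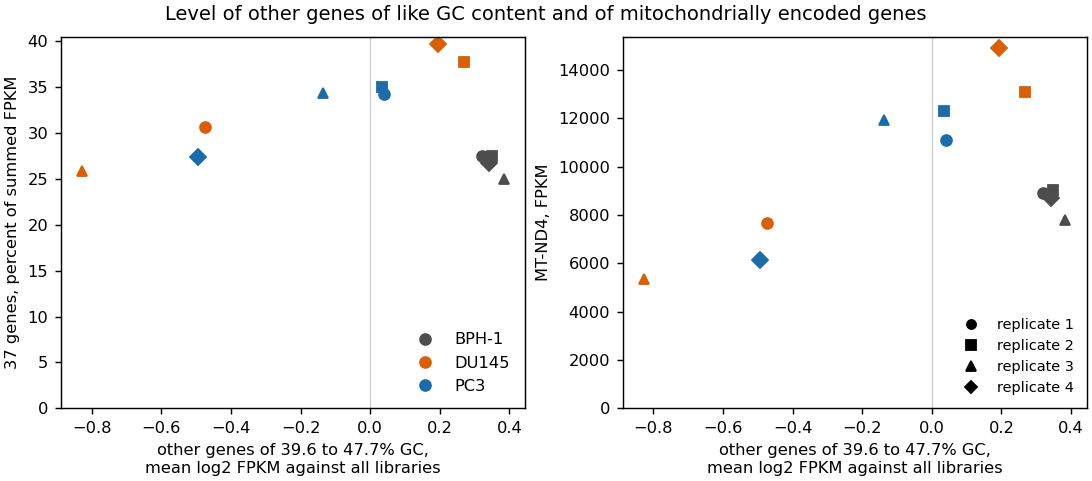
Share of FPKM held by the 37 genes and FPKM of MT-ND4, each against the mean log2 level of the 3014 nuclear genes with the same range of G and C content, 1 point per library. Within DU145 and PC3 the libraries with low nuclear levels, DU145 replicates 1 and 3 and PC3 replicate 4, also have the lowest share and the lowest MT-ND4.

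Genes named as nuclear copies of mitochondrial genes also held reads. The table held 407 such copies, of which 336 were at 0 in every library. MTATP6P1 (GRCh38 chromosome 1, bases 633696 to 634376) differs from MT-ATP6 at 10 of 681 aligned bases and stood at 27.2 to 30.3% of its FPKM. MTND2P28 differs from MT-ND2 at 17 of 1042 and stood at 33.0 to 43.7%, and MTCO1P12 differs from MT-CO1 at 20 of 1542 and stood at 3.26 to 4.16%. Reads of such near-identical copies and of the genes themselves are uncertain. Adding the reads of the 8 highest copies to their genes changed no call, and 20, 18 and 10 mitochondrial genes passed in the 3 comparisons either way.

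The nuclear genes that serve the mitochondrial genome were read from lists of transcription, RNA processing, DNA maintenance, biogenesis and mitoribosomal genes. Of all genes tested, 62.7% passed in DU145 against BPH-1 (30.3% higher, 32.4% lower) and 67.6% in PC3 against BPH-1 (27.1% higher, 40.4% lower). In PC3 against DU145, 48.3% passed (20.0% higher, 28.3% lower). The list counts stand beside these shares and are not read as results about the lists. Of 11 transcription genes, 1 rose and 4 fell in DU145 against BPH-1, 1 rose and 5 fell in PC3 against BPH-1, and 1 rose and 1 fell in PC3 against DU145. Of 23 genes of RNA processing and decay, 3 rose and 9 fell, 6 rose and 11 fell, and 4 rose and 1 fell in the same order. The DNA maintenance list of 21 had 8 higher and 7 lower, 5 higher and 7 lower, and 3 higher and 7 lower. The 8 tested biogenesis regulators had 1 higher and 1 lower, 2 higher and 3 lower, and 0 higher and 2 lower. Of 79 mitoribosomal proteins, 23 rose and 13 fell, 26 rose and 18 fell, and 13 rose and 20 fell. For the last list the direction turned with scaling: with equal summed FPKM, 13 rose and 20 fell in DU145 and 13 rose and 29 fell in PC3 against BPH-1. The medians of these lists lay between -0.45 and 0.21 on the log2 scale, against -0.03, -0.13 and -0.05 over all genes tested.

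TFAM, which packages mitochondrial DNA and is needed to start its transcription, was lower in both cancer lines. It read 21.2, 14.3, 23.3 and 19.5 FPKM in BPH-1, 2.22, 4.74, 0.966 and 3.55 in DU145, and 10.8, 7.97, 3.65 and 3.77 in PC3. It decreased by 2.499 ± 0.313 on the log2 scale in DU145 (limma adjusted p = 8.66e-05) and by 1.54 ± 0.305 in PC3 (limma adjusted p = 0.00149). With the G and C trend divided out it fell by 1.42 in DU145 (limma adjusted p = 8.74e-05), and the difference of -0.41 in PC3 did not pass (limma adjusted p = 0.0899). POLRMT, the mitochondrial RNA polymerase, did not pass in any comparison (0.21, -0.32 and -0.53), but was lower in PC3 under several alternatives. In PC3 against BPH-1 it passed without PC3 replicate 4 (-0.40, limma adjusted p = 0.0170) or BPH-1 replicate 2 (-0.40, 0.0257), with equal summed FPKM (-0.58, 0.00365) and with the G and C trend divided out (-0.86, 0.000222). In PC3 against DU145 it passed under 6 of the 21 alternatives, with differences that included -0.54 with the G and C trend divided out (limma adjusted p = 0.000571) and -0.68 without DU145 replicate 2 (limma adjusted p = 0.0134).

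Of the RNA processing genes, LRPPRC, which stabilises mitochondrial mRNAs, fell by 1.87 ± 0.524 in DU145 (limma adjusted p = 0.0107) and by 2.12 ± 0.405 in PC3 (limma adjusted p = 0.00122). TRMT10C, a subunit of the enzyme that cuts tRNAs from the precursor at their 5′ end, fell by 2.79 ± 0.259 in DU145 (limma adjusted p = 1.30e-05) and by 1.88 ± 0.367 in PC3 (limma adjusted p = 0.00138). Both also passed with the G and C trend divided out, at -1.19 and -1.78 in DU145 and -1.49 and -0.86 in PC3. SUPV3L1, a helicase of mitochondrial RNA decay, rose in PC3 by 1.06 against BPH-1 and by 0.99 against DU145 (limma adjusted p = 2.33e-05 and 0.000682). GRSF1, which binds G-rich RNA in mitochondria, rose in PC3 by 0.85 and 1.23 (limma adjusted p = 5.90e-05 and 0.000170).

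LONP1, a protease of the mitochondrial matrix, read 11.1 to 14.9 FPKM in BPH-1, 26.0 to 42.2 in DU145 and 39.8 to 50.04 in PC3. It rose by 1.24 and 1.63 in DU145 and PC3 against BPH-1 (limma adjusted p = 0.000350 and 3.25e-06). TOP1MT, the topoisomerase of mitochondrial DNA, rose by 1.03 and 1.39 (limma adjusted p = 0.000340 and 4.14e-06). Other genes of the DNA maintenance list fell in both cancer lines. CLPX, the unfolding subunit of another matrix protease, read 16.4 to 22.7 FPKM in BPH-1, 2.16 to 9.51 in DU145 and 2.69 to 4.49 in PC3, and it fell in both, with log2 differences of -1.77 and -2.103 (limma adjusted p = 0.00251 and 4.00e-06). DNA2, a nuclease and helicase, fell by 1.46 and 0.97 (limma adjusted p = 0.000484 and 0.00497), and PRIMPOL, a primase and polymerase, by 0.88 and 1.08 (limma adjusted p = 0.000285 and 2.41e-05). With the G and C trend divided out DNA2 in PC3 did not pass (-0.08, limma adjusted p = 0.669), while the other differences of these 3 genes from BPH-1 did. MRPL15, a protein of the large mitoribosomal subunit, went in opposite directions, as it rose by 1.34 in DU145 and fell by 1.74 in PC3 against BPH-1, and it decreased by 3.09 ± 0.165 in PC3 against DU145 (limma adjusted p = 3.62e-05, 3.53e-06 and 1.20e-06). Its FPKM was 22.3 to 24.3 in BPH-1, 50.3 to 69.0 in DU145 and 5.25 to 8.23 in PC3.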

How the data were processed

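RNA-seq values of 12 libraries, 4 per cell line, were analysed. The authors deposited FPKM for each gene and library, and per the labels the reads were from libraries made with the NEBNext Ultra RNA kit. The submitters' processing notes name CASAVA 1.8, HISAT2 2.1.0, edgeR and GRCh38, while the counting tool and its use of strand are not given in the sources used here. The deposited FPKM equalled whole reads divided by gene length and depth for 92.0 to 93.3% of low values (tolerance 0.01 reads), and for all 37 mitochondrial genes, which gave the depth. Reads recovered this way summed to 104% to 105% of that depth. All columns were assigned, with 0 left out.

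Lines were compared in pairs with limma 3.58.1 (R 4.3.3) on log2(FPKM + 1) with an intensity trend, only the lines compared entering each fit. A gene was kept when 4 of the 8 libraries held values worth 10 or more reads at median depth, with 15 or more over all of them. P-values were adjusted by Benjamini-Hochberg over all genes tested, with a threshold of 0.05. Exact permutation tests (two-sided) of 4 against 4 libraries were an alternative. Their p-values were held to 0.05 without adjustment, so every gene whose lines did not overlap passed that alternative. The test was checked on simulated data: it called few unchanged genes when level did not follow G and C content, many when all libraries of 1 line carried such a trend, and few again once the trend was divided out. The simulated trend was the same in every library of that line, and all genes had 1 dispersion. In DU145 and PC3 the trend differed between replicates, so the check does not show how the test or the correction behaves there. Named are all mRNA and rRNA genes, tRNA genes with at least 10 reads in every library of some line, and, of each nuclear list, the top 2 in either direction by log2 fold change per comparison (adjusted p under 0.05, lines not overlapping), plus POLRMT, TFAM, TFB2M, LRPPRC, SLIRP, POLG and TWNK. Only some of these list genes are described. Python 3.11.15, numpy 2.4.6, pandas 2.3.3, matplotlib 3.10.9 and Biopython 1.88 served for the rest. The genes, gene lists and comparisons were chosen with earlier results of these data known.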

Additional observations from a re-analysis of the deposited data

Results flagged for a closer look

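Over 96 groups of 4 libraries, 8 held a library apart from the other 3 by Dixon's test, at a level that chance passes in about 5% of groups. MT-ND2 was high in 1 BPH-1 library, at 3517 FPKM against 2694 to 2734 in the others. In PC3, MT-ATP8 was low in 1 library, at 7716 FPKM against 10495 to 11054, and the share of FPKM held by the mitochondrial genes was low in the same library, at 27.4% against 34.3 to 35.0%. MT-ND3 was high in that library too, at 1589 FPKM against 1416 to 1444. MT-TF reached 142 FPKM in 1 PC3 library against 81.2 to 91.4, and MT-TE reached 158 in another against 132 to 135. In DU145, MT-TA read 12.2 FPKM in 1 library against 10.7 to 10.8, and MT-ND6 amounted to 0.617% of the heavy-strand mRNAs in another against 1.01 to 1.06%.

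For 3 genes the differences of DU145 and PC3 from BPH-1 had opposite signs and the cancer lines differed from each other in limma (log2 scale). MT-ND6 differed by -0.90 in DU145 and 0.25 in PC3, and PC3 exceeded DU145 by 1.16 (adjusted p = 0.000679). MT-TM differed by 1.62 and -0.21, and PC3 against DU145 gave -1.83 (adjusted p = 9.55e-06). MT-TK differed by 1.28 and -0.14, and PC3 against DU145 gave -1.43 (adjusted p = 0.00584). The differences in PC3 from BPH-1 did not pass for any of the 3 genes.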

How the results depend on the processing

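Of 4484 recomputed differences of single genes, 4239 kept their direction and side of the threshold, 114 lost and 123 gained significance and 8 changed sign. The cause was not tested. Alternatives of base composition, of nuclear copies and of the 3 uneven libraries were added after seeing the data. With the G and C trend divided out the sign changed for MT-TY in DU145 against BPH-1 (0.0941) and, in PC3 against BPH-1, for MT-TK (1.40), TFB2M (0.33), SLIRP (0.69), MRPL12 (-0.0279), GABPB1 (0.10) and MRPL19 (0.0018). Without the 3 uneven libraries, TFB2M in PC3 against DU145 was -0.55.

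The counts of mitochondrial genes that passed were 20, 18 and 10 in DU145 against BPH-1, PC3 against BPH-1 and PC3 against DU145. They were 25, 22 and 8 with the G and C trend divided out, 30, 21 and 15 without the 3 uneven libraries, and 17, 15 and 11 with equal summed FPKM. Of the 3 uneven libraries, only PC3 replicate 4 enters PC3 against BPH-1. Requiring a log2 fold change over 1 left 9, 5 and 6 of them, and 29, 30 and 18 of the 69, 83 and 52 list genes. Leaving out 1 library at a time gave 19 to 23, 16 to 21 and 7 to 11 mitochondrial genes, and 62 to 79, 76 to 89 and 45 to 59 list genes. With the replicate number as a block, 21, 17 and 8 passed. The calls lost were MT-CO3 in PC3 against BPH-1 and MT-CO1 and MT-TT in PC3 against DU145, and MT-TF in DU145 against BPH-1 was gained. The numbers do not pair the samples: deviations of same-numbered libraries correlated between -0.73 and 0.59 over 12 pairs, and those of other pairs between -0.73 and 0.77.

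The mitochondrial share was 5.79, 8.53 and 8.96% of reads in BPH-1, DU145 and PC3, 36.5, 51.4 and 49.0% of the FPKM of all other genes, and 28.1% in BPH-1 with nuclear copies added. In reads, complex I took 46.8, 45.04 and 46.2% of the mRNAs, MT-ND6 1.57, 0.567 and 1.20% of the heavy-strand mRNAs, and the rRNAs came to 6.97, 6.49 and 8.47% of the mRNAs. Equal summed FPKM moved the median of all genes to -0.16, -0.28 and -0.06 on the log2 scale. Depth limits the tRNA genes, 7 of which had under 10 reads in some library of every line.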
